A study of Arabidopsis thaliana with 12 samples.

Results

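GIGANTEA (GI), COR27 (AT5G42900) and its relative AT4G33980 are Arabidopsis genes whose transcripts peak late in the day, and their levels are described here on every array of a study of altered chlorophyll synthesis. The 3 genes were selected on their measured log2 differences between the transgenic and Col-0 groups and on their evening phase known from the field, and all probe sets that the array annotation assigns to them were taken. Each had 1 probe set of its own and shared none with another gene, so the genes are 3 of 22746 probe sets tested and 3 of 13286 genes with a probe set of their own. Since these levels chose them, their differences between groups are given as descriptions. Where a significance threshold is named for them below, it places them among all probe sets and is no evidence of its own.

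RNA came from green tissue of 3-week-old seedlings of the Col-0 ecotype. After stratification for 3 days they were grown on soil at 23 °C in a cycle of 10 h light and 14 h dark. The groups, with 3 biological replicates each, were seedlings in which dexamethasone (20 µg/ml) induced RNA interference against CHLD (CHLD RNAi), Col-0 sprayed with dexamethasone as well, seedlings in which 20 µM β-estradiol induced overexpression of CHLM (CHLM overexpression), and Col-0 sprayed with β-estradiol likewise. CHLD encodes a subunit of magnesium chelatase and CHLM the methyltransferase that acts on its product. The hour of harvest, the time between spraying and harvest, the promoters of the transgenes, the number of independent lines and any pooling of plants are not given in the sources used here, and p-values measure the spread between these samples only.

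The plant circadian clock is a set of transcription factors that repress one another in turn through the day. GI encodes a large plant-specific protein of the evening that stabilises the F-box protein ZTL and, with the F-box protein FKF1, removes repressors of CONSTANS, which promotes flowering in long days. COR27 encodes a small nuclear protein induced by cold and by light that lowers the expression of other clock genes and acts in freezing tolerance and in light signalling. Since transcripts of this class swing over the day, their level in a single harvest depends on the hour at which the tissue was taken.

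The 12 arrays had medians between 6.26 and 6.31 on the log2 scale and correlated pairwise at 0.983 to 0.997 over all probe sets. Within groups the lowest correlation was 0.995 in CHLD RNAi seedlings, 0.996 in Col-0 under dexamethasone, 0.994 in CHLM overexpression seedlings and 0.99 in Col-0 under estradiol, where replicate 1 stood apart. CHLM, the gene that was to be raised, was at 14.48, 13.96 and 14.24 in the overexpression seedlings, against 11.71, 11.72 and 11.68 in Col-0 under estradiol. No probe set used here carries the name of CHLD, so its knockdown is not analysed here. Of 19 genes listed as markers of leaf and other cell types, 3 were measured. The leaf genes LHCB4.2 and PRK lay at 13.58 or above and at 12.49 or above on all arrays. FMA, which drives guard cell formation, fell in CHLD RNAi seedlings, with 6.12, 5.79 and 5.92 against 6.18, 6.40 and 6.38 in Col-0 under dexamethasone (log2 difference -0.38, SE 0.109, limma adjusted p = 0.0361), and this call ended without CHLD RNAi replicate 2 or 3 or Col-0 dexamethasone replicate 2 or 3 (adjusted p between 0.0896 and 0.141). Its part in the results below was not tested.

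GI was lower in both kinds of transgenic seedlings than in Col-0 with the same inducer, and by nearly the same amount. In CHLD RNAi seedlings its log2 signal was 8.50, 8.39 and 8.47, against 9.37, 9.07 and 9.13 in Col-0 under dexamethasone. In CHLM overexpression seedlings it was 8.30, 8.34 and 8.26, against 9.09, 8.92 and 8.95 in Col-0 under estradiol. All 6 transgenic arrays lay below all 6 Col-0 arrays, with the highest transgenic value at 8.50 and the lowest Col-0 value at 8.92. The share of all probe sets with such a separation was not counted, and GI was chosen on these levels. The log2 difference was -0.74 (SE 0.0933, 1.67-fold) for CHLD RNAi and -0.69 (SE 0.0933, 1.61-fold) for CHLM overexpression, and the second minus the first was 0.05 (SE 0.132). In tissue RNA of this kind, fewer cells with the transcript and less transcript per cell cannot be told apart.

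The order of GI from low to high was CHLM overexpression (mean 8.30 ± 0.04, SD, n = 3), CHLD RNAi (8.45 ± 0.06), Col-0 under estradiol (8.99 ± 0.09) and Col-0 under dexamethasone (9.19 ± 0.16). The Col-0 groups overlapped, since replicate 2 under dexamethasone, at 9.07, lay below replicate 1 under estradiol, at 9.09. The transgenic groups were separated by 0.05 between the nearest arrays. The step between the transgenic and the Col-0 groups was the widest, with 0.42 between the nearest arrays. GI had the smallest SD of the 3 genes in each group but Col-0 under dexamethasone.

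**Figure D1:**
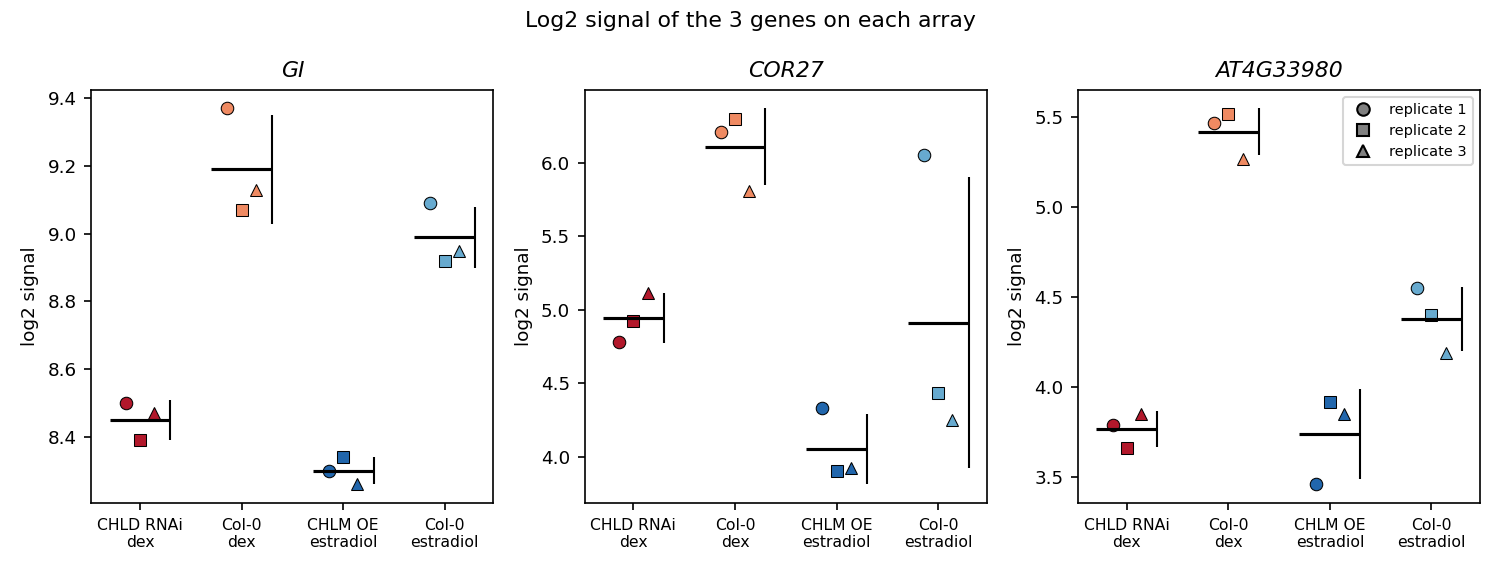
Log2 signal of GI, COR27 and AT4G33980 on each array (y axis, each panel on its own scale) in the 4 groups (x axis, dex for dexamethasone, OE for overexpression). Points are arrays, with a symbol for each replicate number, horizontal lines are group means and vertical lines 1 SD (n = 3); GI and AT4G33980 lay lower in each transgenic group than in its Col-0 group with no overlap, and COR27 overlapped under estradiol because Col-0 replicate 1 was at 6.05.

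COR27 was lower in CHLD RNAi seedlings than in Col-0 under dexamethasone, while under estradiol a single Col-0 array set the difference. The CHLD RNAi seedlings were at 4.78, 4.92 and 5.11, against 6.21, 6.30 and 5.81 in Col-0 under dexamethasone, so these groups were 0.70 apart at their nearest arrays. The log2 difference was -1.17 (SE 0.336, 2.25-fold). The CHLM overexpression seedlings were at 4.33, 3.90 and 3.92, against 6.05, 4.43 and 4.25 in Col-0 under estradiol. Here replicate 1 of Col-0 lay within the range of Col-0 under dexamethasone, and replicates 2 and 3 lay next to the overexpression seedlings, whose replicate 1 at 4.33 was above Col-0 replicate 3 at 4.25. The log2 difference was -0.86 (SE 0.336, 1.82-fold) with all arrays and -0.29 (SE 0.16, 1.22-fold) without Col-0 estradiol replicate 1.

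The same array also set the error of COR27 in the other comparison, because all 4 groups share an estimate of the spread. Without it the difference in CHLD RNAi seedlings stayed at -1.17 and its SE was 0.143. The order of the group means of COR27 from low to high was CHLM overexpression (4.05 ± 0.24, SD, n = 3), Col-0 under estradiol (4.91 ± 0.99), CHLD RNAi (4.94 ± 0.17) and Col-0 under dexamethasone (6.11 ± 0.26). The first 3 overlapped with their neighbours in this order. COR27 was thus the gene with the widest spread in a group, and the spread came from Col-0 under estradiol.

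AT4G33980 was the most strongly lowered of the 3 genes in CHLD RNAi seedlings. There it was at 3.79, 3.66 and 3.85, against 5.47, 5.52 and 5.27 in Col-0 under dexamethasone. The nearest arrays of these groups were 3.85 and 5.27, and the log2 difference was -1.65 (SE 0.129, 3.15-fold). The CHLM overexpression seedlings were at 3.46, 3.92 and 3.85, against 4.55, 4.40 and 4.19 in Col-0 under estradiol. These groups did not overlap either, with a log2 difference of -0.64 (SE 0.129, 1.55-fold), and the difference was -0.55 (SE 0.136) without Col-0 estradiol replicate 1. No detection call is given in the sources used here, so whether the values in the transgenic seedlings and in Col-0 under estradiol lie above background is not known. The same holds for the lower values of COR27 under estradiol.

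AT4G33980 differed by less than the spread between the 2 transgenic groups and stood apart between the Col-0 groups. It averaged 3.74 ± 0.25 in CHLM overexpression seedlings and 3.77 ± 0.10 in CHLD RNAi seedlings (SD, n = 3 each), a difference of -0.02 (SE 0.129) with overlapping arrays. It averaged 5.42 ± 0.13 in Col-0 under dexamethasone and 4.38 ± 0.18 in Col-0 under estradiol, a difference of 1.04 (SE 0.129, 2.06-fold) with 0.72 between the nearest arrays. The CHLM effect minus the CHLD effect was therefore 1.02 (SE 0.182), and nearly all of it was the difference between the Col-0 groups. In these comparisons inducer, and any other way in which the dexamethasone and estradiol sets were handled, cannot be told apart.

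Of the 3 genes, all 3 were lower at a limma adjusted p under 0.05 in CHLD RNAi seedlings, where 6.34% of all probe sets were lower by this rule. Under CHLM overexpression 2 of 3 were lower, GI and AT4G33980, against 4.3% of all probe sets. Between the Col-0 groups 1 of 3, AT4G33980, was higher under dexamethasone, against 0.0308% of all probe sets (7 of 22746), and its groups did not overlap, as for 8.12% of all probe sets. For the CHLM effect minus the CHLD effect 1 of 3, again AT4G33980, was past the threshold upward, against 0.246%. Without Col-0 estradiol replicate 1 COR27 passed as well in the last 2 comparisons, so that 2 of 3 were higher in each, against 1.22% of all probe sets between the Col-0 groups and 0.554% for the difference between the effects. The genes were picked for such differences, so these counts place them among the probe sets and are no evidence of their own. Groups that did not overlap, with the transgenic group lower, were seen for 3 of 3 genes under dexamethasone and 2 of 3 under estradiol, against 15.8% and 11.3% of all probe sets.

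**Figure D2:**
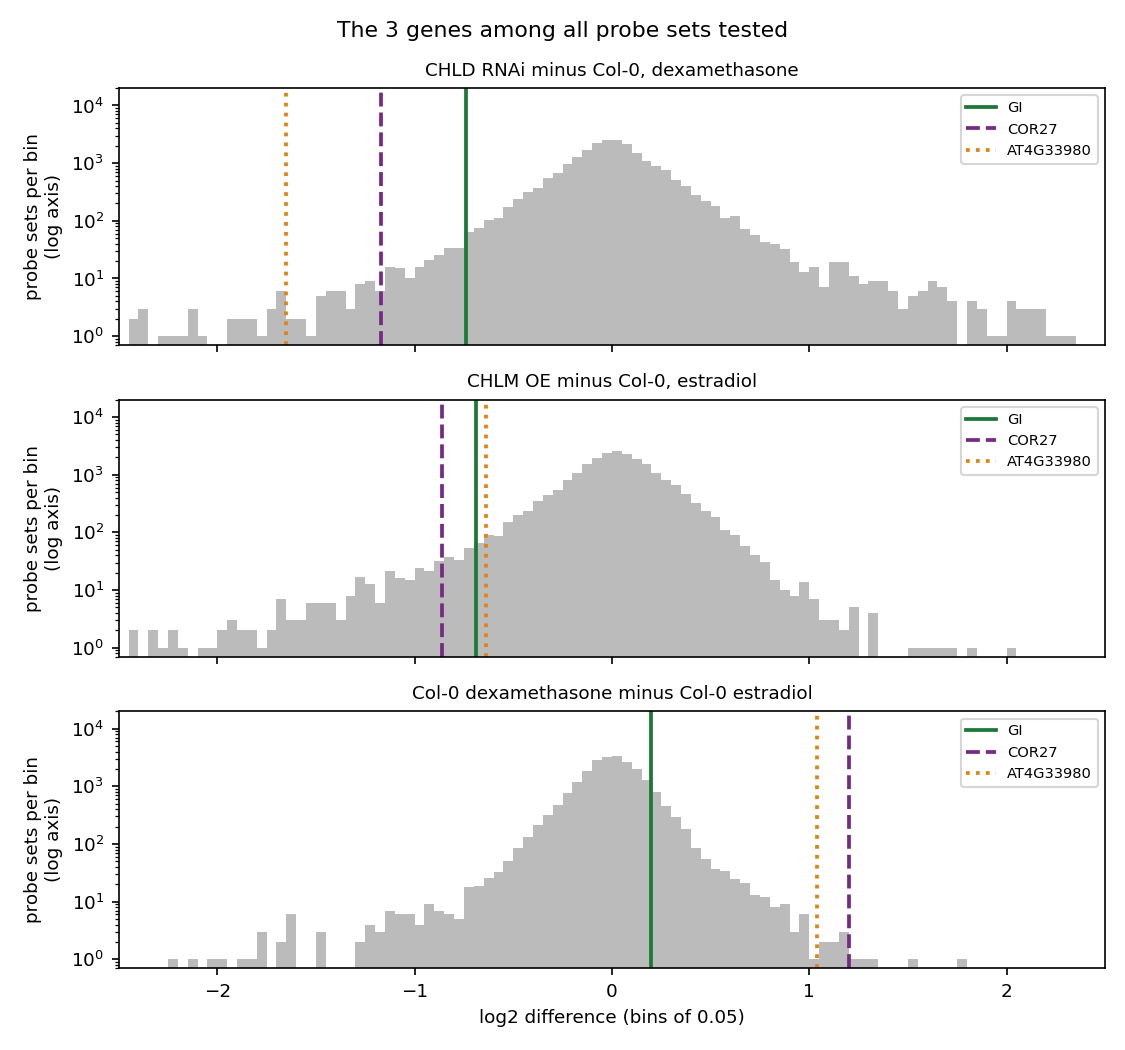
Number of probe sets per bin of 0.05 (y axis, log scale) by log2 difference (x axis, drawn from -2.5 to 2.5; the few probe sets beyond are not drawn) in 3 comparisons, with a vertical line for each of the 3 genes. The genes lie in the lower tail for both kinds of transgenic seedlings, and COR27 and AT4G33980 lie in the upper tail, at 1.20 and 1.04, between the Col-0 groups.

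The place of the genes among all probe sets differed by comparison. Counted from the largest fall among 22746 probe sets, AT4G33980 was at place 32 in CHLD RNAi seedlings, COR27 at 79 and GI at 264. For CHLM overexpression COR27 was at place 240, GI at 386 and AT4G33980 at 446, an order that turned without Col-0 estradiol replicate 1, when GI was at 393, AT4G33980 at 541 and COR27 at 1888. Between the Col-0 groups the median difference of all probe sets was 0.000, and counted from the largest rise COR27 was at place 7 and AT4G33980 at place 13, while GI was at place 1942. Without that array COR27 was at place 4 and AT4G33980 at place 31. COR27 and AT4G33980 stood near the top of what separated Col-0 under dexamethasone from Col-0 under estradiol, and GI did not. The same Col-0 arrays entered the differences on which the genes were chosen, so these places are descriptions and no evidence of their own.

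Between the Col-0 groups, COR27 was higher under dexamethasone by 1.20 (SE 0.336, 2.29-fold) with all arrays and by 1.77 (SE 0.16, 3.4-fold) without Col-0 estradiol replicate 1. GI was higher by 0.20 (SE 0.0933), and by 0.26 (SE 0.104) without that array. AT4G33980 was higher by 1.04, and by 1.13 (SE 0.136) without it. Of all probe sets 11 (0.0484%) were past the threshold in this comparison with all 12 arrays and 728 without that array. COR27 was past it without that array and not with it, and AT4G33980 was past it both ways.

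Replicate 1 of Col-0 under estradiol was the highest of its group for all 3 genes, by 0.14 for GI, by 0.15 for AT4G33980 and by 1.62 for COR27 over the higher of the other two replicates. The COR27 step was at place 67 among all probe sets counted from the largest, and those of GI and AT4G33980 at places 3843 and 3762. Over all probe sets 36.9% were highest in this array. All 4 measured cold response genes were highest in it as well. LTI30, a dehydrin gene induced by cold and drought, was at 10.63 there and at 7.61 and 7.79 in replicates 2 and 3, and COR47, another dehydrin gene, was at 12.81 there and at 11.86 and 11.97. COR15A and COR15B, which encode cold-induced chloroplast proteins, were higher by 0.37 and 0.12. In this array COR27 was within the range of Col-0 under dexamethasone and LTI30 above it, while AT4G33980, at 4.55, stayed below all 3 arrays of that group. The part of a state of cold or drought in these values was not tested.

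**Figure D3:**
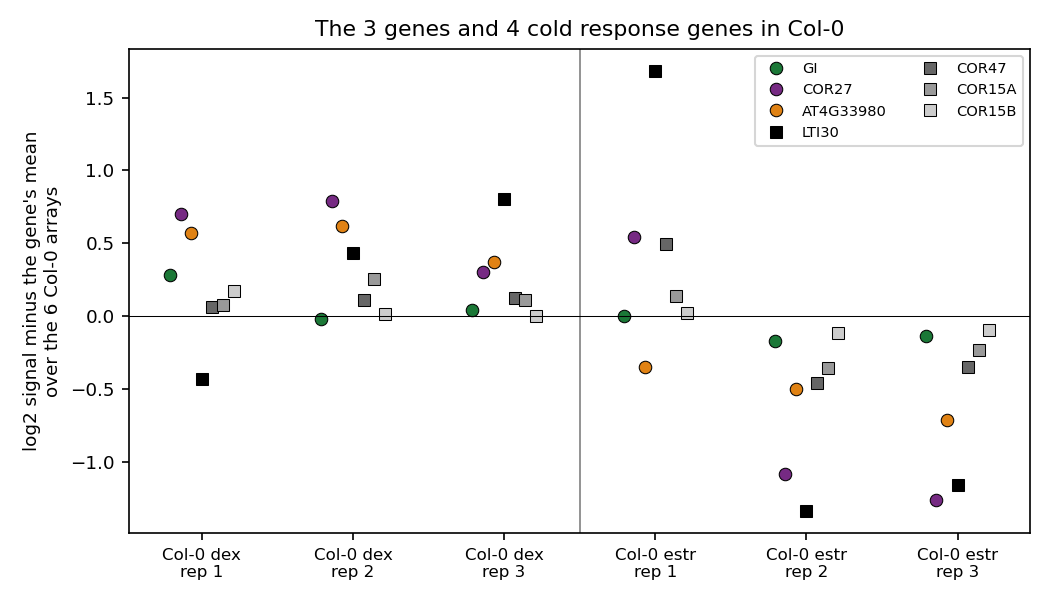
Log2 signal in the 6 Col-0 arrays (x axis; dex, dexamethasone; estr, estradiol) relative to each gene's mean over them (y axis), with circles for GI, COR27 and AT4G33980 and squares for 4 cold response genes. COR27 and LTI30 are high in estradiol replicate 1, at 6.05 and 10.63 on the log2 scale, and low in replicates 2 and 3, while AT4G33980 is below its mean in all 3 estradiol arrays.

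Other genes of the clock, of photoperiodic flowering, of cold response and of light signalling were taken from 4 lists with 80 genes, of which 11 had a probe set named for them alone. The core clock genes CCA1, LHY and TOC1, the evening complex genes ELF3, ELF4 and LUX and the GI partners ZTL and FKF1 are not analysed here. In CHLD RNAi seedlings 1 of the 11 rose and 1 fell, where 6.07% of all probe sets rose and 6.34% fell (12.4% together). Under CHLM overexpression 0 rose and 1 fell, where 5.44% rose and 4.3% fell (9.75% together). At an unadjusted p under 0.05, 4 of the 11 passed in CHLD RNAi seedlings and 2 under CHLM overexpression, beside 26.2% and 25.2% of all probe sets. Between the Col-0 groups 0 of the 11 passed in limma after adjustment (0.0484% of all probe sets) and 0 at an unadjusted p under 0.05 (10.6%). For the difference between the effects 0 passed after adjustment (1.13%) and 1 at an unadjusted p under 0.05 (9.5%). Without Col-0 estradiol replicate 1 the number past the threshold was 4 in CHLD RNAi seedlings, with LTI30 and COR47 added. Of all probe sets 7.86% then rose and 8.08% fell. The number was 1, LTI30, both between the Col-0 groups and for the difference between the effects. Of all probe sets 1.22% were then higher and 1.98% lower under dexamethasone between the Col-0 groups. For the difference between the effects these shares were 0.554% and 1.61%. In the separate lists, the median log2 difference in CHLD RNAi and CHLM overexpression seedlings was -0.11 and 0.01 over 4 clock genes, -0.07 and -0.05 over 2 flowering genes and -0.39 and -0.33 over 4 cold genes, beside medians of -0.007 and 0.020 over all probe sets. The sign of the cold median under estradiol rested on Col-0 estradiol replicate 1, and without it that median was 0.14 (0.023 over all probe sets), while the clock and flowering medians there were -0.03 and 0.01.

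TIC, a nuclear regulator of clock amplitude and period, was 1 of 4 measured genes of the clock list and fell in both kinds of transgenic seedlings. In CHLD RNAi seedlings it was at 8.69, 8.58 and 8.54, against 9.00, 9.13 and 9.00 in Col-0 under dexamethasone (log2 difference -0.44, SE 0.0832, limma adjusted p = 0.0037). In CHLM overexpression seedlings it was at 8.49, 8.39 and 8.52, against 9.03, 8.92 and 8.98 in Col-0 under estradiol (-0.51, SE 0.0832, limma adjusted p = 0.00297). As with GI, all 6 transgenic arrays lay below all 6 Col-0 arrays. The share of all probe sets with this separation was not counted. In the single comparisons, the transgenic group was lower without overlap for 15.8% of all probe sets under dexamethasone and 11.3% under estradiol. Adjusted p stayed at or below 0.0239 in both comparisons under every alternative run. The difference between the effects was -0.07 (SE 0.118, limma adjusted p = 0.933).

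The other 3 did not pass in either line. AT5G52660 was at -0.25 (SE 0.13, limma adjusted p = 0.247) in CHLD RNAi seedlings and 0.03 in CHLM overexpression seedlings. XCT, which sets the pace of the clock, was at 0.10 and 0.02, and FIO1, which acts on period length and flowering, at 0.02 and 0.01. Of the genes around GI in flowering, SPY, whose sugar transferase product binds GI, was at -0.10 (SE 0.0878) and -0.09 (SE 0.0878), and AT1G69570 was within 0.05 of 0 in both.

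HYH, which encodes a bZIP transcription factor close to the light-signalling factor HY5, was the gene that rose. With no detection call given, whether its values lie above background is not known. In CHLD RNAi seedlings it was at 4.41, 4.22 and 4.93, against 3.55, 3.52 and 3.47 in Col-0 under dexamethasone (log2 difference 1.01, SE 0.164, limma adjusted p = 0.00136). The CHLM overexpression seedlings were at 4.41, 4.17 and 4.18, against a mean of 3.82 ± 0.28 (SD, n = 3) in Col-0 under estradiol, which was not past the threshold (0.44, SE 0.164, limma adjusted p = 0.11). Leaving out Col-0 estradiol replicate 1 gave 0.28 (limma adjusted p = 0.337), and it passed (limma adjusted p = 0.0491) without CHLD RNAi replicate 3, which entered through the shared spread. The difference between the effects was -0.57 (SE 0.232, limma adjusted p = 0.422). In Col-0 under estradiol HYH was lowest in replicate 1, at 3.50, where COR27 was highest. Of all probe sets 38.4% were lowest of this group in that array.

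Among the cold genes LTI30 had the largest difference. It was at 6.93, 7.63 and 7.84 in CHLD RNAi seedlings, against 8.52, 9.38 and 9.75 in Col-0 under dexamethasone, and did not pass with all arrays (log2 difference -1.75, SE 0.603, limma adjusted p = 0.0739). Without Col-0 estradiol replicate 1 it passed (SE 0.297, limma adjusted p = 0.00114), and so did COR47 (-0.54, limma adjusted p = 0.133 with all arrays and 0.0245 without it). COR15A went the other way, at 0.16 in CHLD RNAi and 0.33 in CHLM overexpression seedlings (limma adjusted p = 0.682 and 0.32). COR15B was at -0.25 and -0.26 (limma adjusted p = 0.361 and 0.351). For CHLM overexpression LTI30 was at -0.58 (limma adjusted p = 0.608) with all arrays and at 0.39 (limma adjusted p = 0.55) without that array, and the difference between the effects was 1.17 (limma adjusted p = 0.767) with it and 2.14 (0.0179) without it. Between the Col-0 groups it was higher under dexamethasone by 0.54 (limma adjusted p = 0.824) with that array and by 1.52 (0.0231) without it. LTI30 thus shared with COR27 a difference under estradiol that depended on this array. In CHLD RNAi seedlings the array entered only through the shared spread. There COR27 passed with and without it, while LTI30 passed without it and not with it.

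A further 7 genes of clock, flowering and light response were added from the names in the reference after the lists proved to be thinly measured. AT4G14480, whose product BLUS1 passes on blue light signals, fell in CHLD RNAi seedlings, with 5.49, 5.47 and 5.34 against 5.83, 6.10 and 5.97 in Col-0 under dexamethasone (log2 difference -0.53, SE 0.109, limma adjusted p = 0.00583), and was at -0.03 in CHLM overexpression seedlings. Its difference between the effects did not pass (0.51, SE 0.154, limma adjusted p = 0.192). AT1G72390, named PHYTOCHROME-DEPENDENT LATE-FLOWERING, fell in CHLM overexpression seedlings at its brighter probe set (-0.34, SE 0.0991, limma adjusted p = 0.0452), a call that ended without any 1 of 11 of the 12 arrays (adjusted p up to 0.155), and its dimmer probe set was at 0.08. In CHLD RNAi seedlings the brighter probe set was at -0.21 (SE 0.0991, limma adjusted p = 0.189). Its difference between the effects was -0.13 (SE 0.14, limma adjusted p = 0.874). LIP1, a small GTPase of the clock's light response, FY and LD of the autonomous flowering pathway, LDL2 and CSN5B did not pass in either line, with differences between -0.11 and 0.13.

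**Figure D4:**
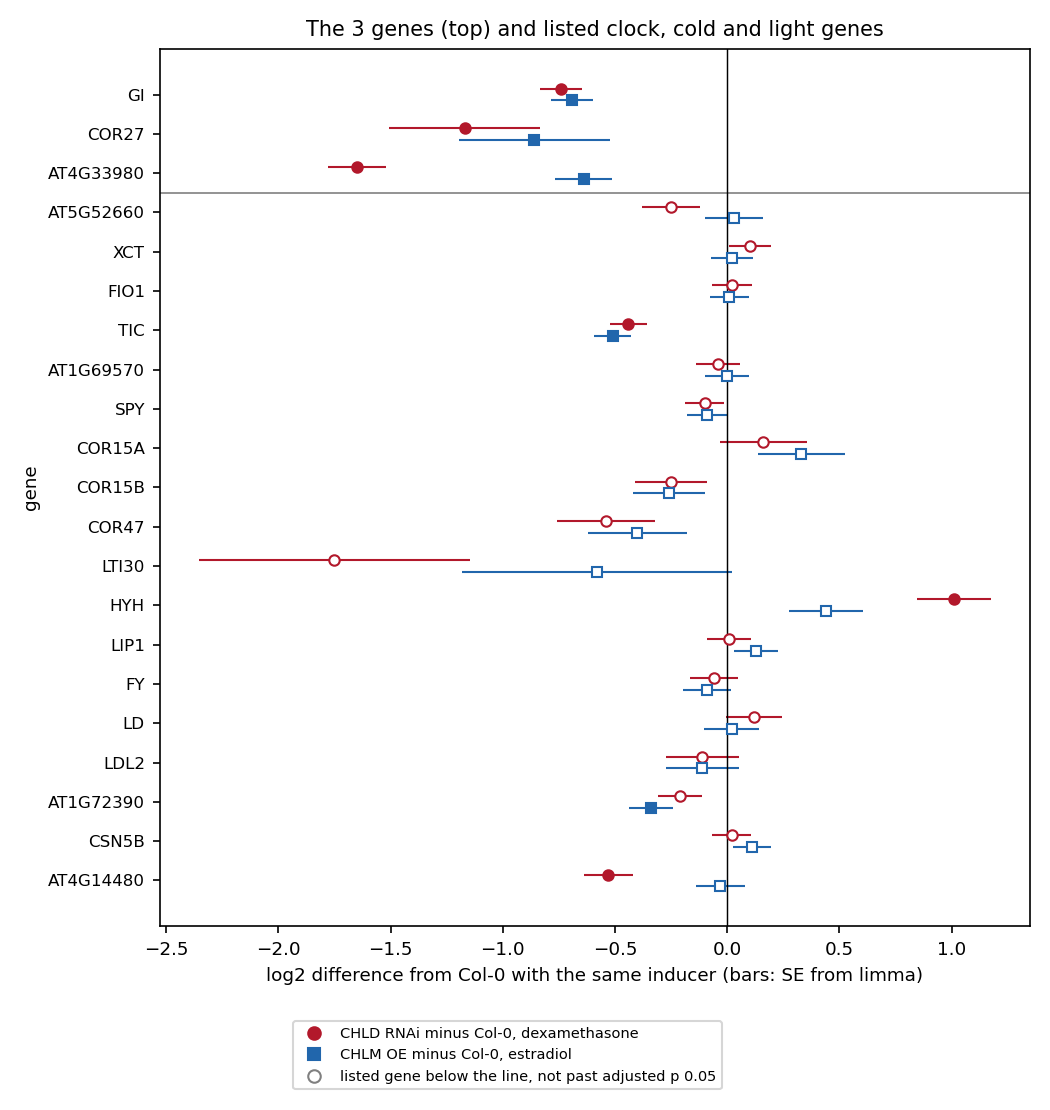
Log2 difference from Col-0 with the same inducer (x axis, bars are SE from limma) for the 3 genes above the line and 18 listed genes below it (y axis), with circles for CHLD RNAi and squares for CHLM overexpression. Below the line filled symbols passed a limma adjusted p of 0.05, such as TIC in both lines and HYH in CHLD RNAi; the 3 genes are filled without regard to a test.

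Genes whose signal followed each of the 3 most closely were ranked by Pearson's r over the 12 arrays, among 2140 probe sets with 1 other gene and an SD over the arrays of at least 0.25. These values describe the 12 arrays, share their group structure and carry no p. The genes were picked by r, so a likeness of their group levels to those of GI, COR27 or AT4G33980 comes with that choice. For GI they were AT1G55680 (r = 0.979), AT4G28240 (0.979), the glucan water dikinase gene AT4G24450 (0.971), AT5G43870 (0.970) and AT3G08670 (0.969). AT4G24450 had group means of 6.74 in CHLD RNAi seedlings, 7.45 in Col-0 under dexamethasone, 6.55 in CHLM overexpression seedlings and 7.24 in Col-0 under estradiol, the same order of groups as GI. The genes most opposite to GI were AT1G62150 (r = -0.957), AT1G65560 (-0.955) and AT3G44450 (-0.953).

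For COR27 the most alike were AT2G38800 (r = 0.972), AT5G05110 (0.961), EIN3 (0.954), AT1G21920 (0.953) and AT1G53035 (0.951). EIN3, the central transcription factor of the ethylene response, averaged 9.23 in CHLD RNAi seedlings, 9.64 in Col-0 under dexamethasone, 9.03 in CHLM overexpression seedlings and 9.37 in Col-0 under estradiol, so that it followed COR27 over a much narrower range. The most opposite were AT3G09200 (-0.949), AT2G27710 (-0.948) and UPP, a gene of pyrimidine salvage (-0.947). The likeness of COR27 to AT2G38800 was 0.971 without Col-0 estradiol replicate 1, and 4 of the 5 genes stayed among the 5 most alike.

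For AT4G33980 the most alike were AT3G43670 (r = 0.966), AT2G20670 (0.962), AT3G15630 (0.958), AT1G62770 (0.958) and AT5G19120 (0.954). AT3G15630 averaged 7.07 in CHLD RNAi seedlings, 8.75 in Col-0 under dexamethasone, 6.98 in CHLM overexpression seedlings and 8.01 in Col-0 under estradiol, and so shared with AT4G33980 the low level of both transgenic groups and the gap between the Col-0 groups. The most opposite were MSRB5, a methionine sulfoxide reductase gene (-0.970), AT1G55210 (-0.967) and AT5G62440 (-0.959). Without Col-0 estradiol replicate 1 only 1 of the 5 most alike stayed among them, AT2G20670, and XERICO led at 0.982, a gene named here after its value was seen.

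None of the 3 genes was among the genes named above as most like another of the 3. The 3 genes were themselves candidates for one another. The genes named above were picked for the highest r, so any candidate not named had a lower one. GI and AT4G33980 had r = 0.896 (Spearman's rho 0.827), COR27 and AT4G33980 0.797 (0.602), and GI and COR27 0.761 (0.755). Seen from GI, AT4G33980 was at place 99 of 2140 and COR27 at place 348. They parted most plainly in Col-0 under estradiol, where GI stayed near its level under dexamethasone, AT4G33980 was lower on all 3 arrays, and COR27 was lower on replicates 2 and 3 and not on replicate 1.

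**Figure D5:**
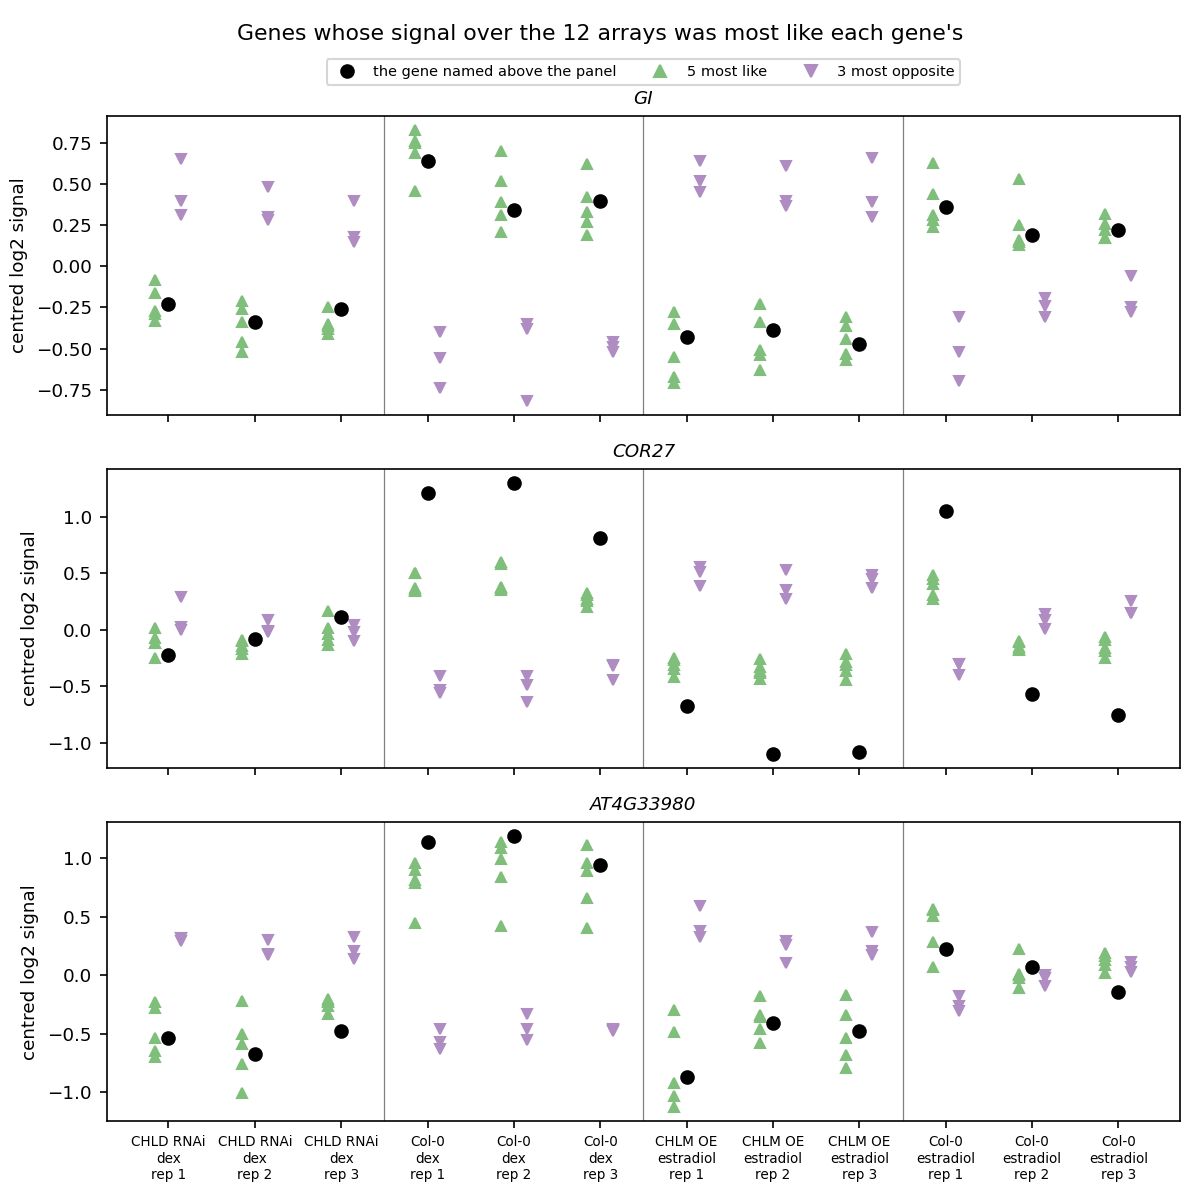
Log2 signal centred on each gene's mean over the 12 arrays (y axis) by array (x axis, dex for dexamethasone, OE for overexpression), with the named gene in black, the 5 genes most like it as upward triangles and the 3 most opposite as downward triangles. The genes most like COR27 follow it over a narrower range, and those most like AT4G33980 share its low values in both transgenic groups.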

How the data were processed

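Levels are from 12 one-colour Affymetrix arrays. The deposited values are log2 signals from the authors' run of Expression Console (Affymetrix, as listed in the submitters' processing notes); its version, summary method and normalization are not given in the sources used here. Base 2 was inferred, since values lay between 2.39 and 14.49. All 12 columns were used and 0 left out. Of 22809 probe sets, 63 AFFX controls were removed. The array annotation gave 1 gene to 13513 probe sets, several to 503 and none to 8730, and 13436 of the first matched the RefSeq table of TAIR10.1. No coordinates or sequences were used.

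All arrays entered 1 model of 4 group means in limma 3.58.1 (R 4.3.3; residual df 8, prior df 6.05). Two-sided p-values were adjusted by Benjamini-Hochberg over 22746 probe sets, with a threshold of 0.05. The fit was tested on simulated data with independent normal errors, the same spread in every array and changes only in the CHLD RNAi group. That run could not test the effect of an array that stands apart, such as Col-0 estradiol replicate 1. Figures used matplotlib 3.10.9. Alternatives were each array left out, the replicate number as a block, eBayes with trend and robust fitting, quantile normalization, removal of the dimmest 25% of probe sets, only the arrays compared, and array weights; a common median was added later. Same-numbered replicates had deviations correlated at -0.13 to 0.24, so the numbers do not pair samples. The precision is limited by 3 arrays per group.

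The members and lists were chosen with earlier results of these data known. Named were the 3 genes, listed genes past the threshold (up to 6 a list, otherwise the smallest p) and, for each of the 3, the 5 genes most like it and the 3 most opposite.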

Additional observations from a re-analysis of the deposited data

Results flagged for a closer look

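For AT4G33980 the CHLM effect minus the CHLD effect was 1.02 (SE 0.182). The 2 transgenic groups were at 3.74 and 3.77, against 4.38 in Col-0 under estradiol and 5.42 in Col-0 under dexamethasone. Nearly all of the 1.02 was thus the difference between the Col-0 groups, where inducer and handling cannot be told apart. Whether the transgenic values and those of Col-0 under estradiol lie above background is not known. The gene came up because the interaction term of the fit was past the limma threshold, as for 256 of 22746 probe sets (1.13%). The gene was chosen with these values known.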

How the results depend on the processing

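Over 225 alternative values of the log2 differences of GI, COR27 and AT4G33980, 222 moved by less than 1 SD between replicates. The other 3 were those of COR27 without Col-0 estradiol replicate 1. With 1 array left out at a time, COR27 ranged from -1.19 to -0.29 for CHLM overexpression against Col-0, from 0.87 to 1.77 between the Col-0 groups and from -0.02 to 0.88 for the CHLM effect minus the CHLD effect. The count of probe sets past the threshold ranged from 1563 to 3626 for CHLD RNAi, from 1156 to 2090 for CHLM overexpression, from 0 to 728 between the Col-0 groups and from 187 to 492 for the difference between the effects. The 0, in limma without Col-0 dexamethasone replicate 2, stood beside 1757 at an unadjusted p under 0.05, and the 728 and 492 came without Col-0 estradiol replicate 1. With only the arrays compared, the CHLM count was 855 and the Col-0 count 17. The Col-0 count, 11 with all arrays, was 25 with the replicate block, 36 with trend and robust fitting, 27 without the dimmest probe sets, 32 with arrays shifted to a common median and 703 with array weights, which also gave 447 for the difference between the effects. The cause was not tested. Only 3 of 12 arrays deviated most like an array of their own number in another group, and the block ended the calls of AT1G72390 in CHLM overexpression (adjusted p = 0.0591) and FMA in CHLD RNAi (0.0512), and no other call among the listed genes. Among 1575 alternative values of listed and marker genes, 19 lost their call, 9 gained one and 0 reversed. Of the 15 genes most like the 3, 9 stayed among the 5 without Col-0 estradiol replicate 1 and 5 by Spearman's rho.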
